A study of Mus musculus with 2 samples.

Results

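Prostaglandin synthesis and signalling genes were examined on 2 Affymetrix arrays of sorted mouse liver mesothelial cells, the epithelial-like layer over the surface of the liver. The members were 10 genes: the cyclooxygenases Ptgs1 and Ptgs2, the terminal synthases Ptgis, Ptges and Ptges3, the receptors Ptger2, Ptger3, Ptger4 and Ptgir, and the catabolic dehydrogenase Hpgd. They were taken by their gene symbol in the annotated table of the series, out of 18195 genes named on the arrays, and were covered by 19 probe sets. The fetal array held RNA of PCLP1+ cells from C57BL/6 livers at embryonic day 12.5 (E12.5), and the adult array RNA of Mesothelin+ cells from C57BL/6 livers at 8 weeks. PCLP1 is the sialomucin encoded by Podxl, and Mesothelin is the mesothelial surface glycoprotein encoded by Msln. All livers were digested with collagenase and the cells taken on a sorter, and 10 ng of total RNA per sample was amplified in 2 cycles before hybridisation. The number of livers behind each sample is not given in the labels. Fetal and adult cells stand below for these samples. Each group had 1 array, so differences have no replicate check and no test was possible. Stage, sorting antigen and array cannot be told apart.

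Prostaglandins are lipid mediators made from arachidonic acid. Phospholipases free the fatty acid from membranes, cyclooxygenases turn it into an unstable endoperoxide, and terminal synthases convert the endoperoxide into prostacyclin, prostaglandin E and their relatives, which act on G-protein-coupled receptors of nearby cells. Mesothelium of the body cavities is a known source of prostacyclin and prostaglandin E, which take part in vascular tone, inflammation and the prevention of clots on serous surfaces.

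Signals are linear array intensities, with the adult array scaled to the median of the E12.5 array as in the authors' deposited ratio. A probe set was called detected where its deposited detection call was present. A gene was represented by its brightest detected probe set. A fold against an array without a present call uses the signal measured there. It is called a lower bound and written as at least, but a floor or pseudocount on low signals can make it smaller. Of the 10 members 8 were detected, 7 of them on both arrays and Ptger2 in adult cells alone. Ptges and Ptgir had no present call. Of the 8 detected members, 6 were at least 2-fold higher in adult cells, namely Ptgs1, Ptgs2, Ptgis, Ptger2, Ptger3 and Hpgd. The other two, Ptges3 and Ptger4, were at least 2-fold higher in fetal cells. Across all 12803 genes detected on at least 1 array, 16.9% were at least 2-fold higher in adult cells and 29.1% in fetal cells, against 75% and 25% of the 8 detected members. After quantile normalization 6 and 1 members lay past 2-fold (background 20% and 23.2%), with the detected genes centred on 0 also 6 and 1 (22.9% and 19.4%), and without scaling 5 and 2 (11.5% and 46.5%). Ptger2, detected in adult cells alone, could count on that side only. The 7 members with present calls in both samples divided into 5 past 2-fold towards adult cells and 2 towards fetal cells, where the shares over all genes detected on both arrays were 13.3% and 27.1%. The median log2 difference, E12.5 minus adult, was -1.65 over these 7 members and 0.37 over all genes detected on both arrays. The scaling moved the median of all genes detected on at least 1 array from 0.35 to 0.12 with quantile normalization, -0.02 with centring and 0.91 with no scaling. Of the 12 member probe sets with a present call, 9 were higher in adult cells and 3 in fetal cells. The share over all probe sets was not computed, and 4 members gave 2 of these probe sets each. Those of Ptger2 and the dimmer one of Hpgd had a present call in adult cells alone. In bulk RNA of sorted cells, fewer cells of a type and less RNA per cell cannot be told apart.

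**Figure D1:**
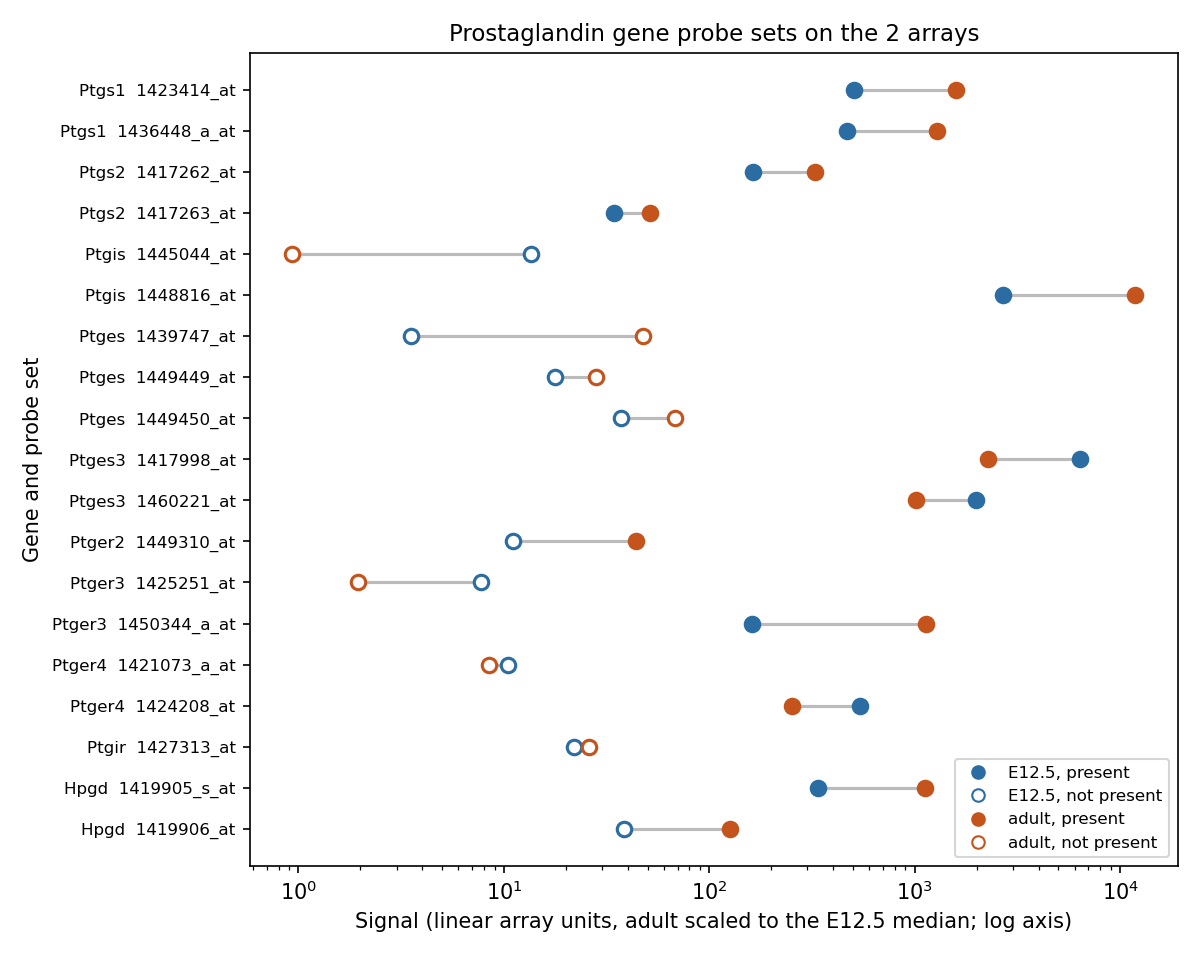
Signal of each of the 19 probe sets on the E12.5 array (blue) and the adult array (orange), on a log axis, with the adult array scaled to the E12.5 median and filled points for present calls. The filled points of Ptgs1, Ptgs2, Ptgis, Ptger2, Ptger3 and Hpgd lie further right in adult cells, those of Ptges3 and Ptger4 further right in fetal cells, and Ptges and Ptgir have no filled point.

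Both cyclooxygenases were higher on the adult array. Ptgs1, the constitutive enzyme (COX-1) of platelets, stomach and many resting cells, had a signal of 507 in fetal cells and 1589 in adult cells with probe set 1423414_at. The adult signal was 3.14-fold higher, a log2 difference of -1.65. The second Ptgs1 probe set, 1436448_a_at, had 468 and 1285 (2.75-fold), so that the probe sets lay 0.19 apart on the log2 scale. Ptgs2, the inducible enzyme (COX-2) that rises within hours of growth factor or cytokine stimulation, had 162 in fetal cells and 325 in adult cells with probe set 1417262_at. Its difference of 2.005-fold (log2 -1.003) stood at the 2-fold limit itself, and the dimmer probe set 1417263_at had 34.4 and 51.4, only 1.49-fold apart. The Ptgs2 difference was under 2-fold without scaling of the arrays (log2 -0.45), with its detected probe sets averaged (-0.79) and with a pseudocount of 16 (-0.94). The Ptgs1 probe sets carry that name in the authors' deposited table, and the later platform annotation used for the other genes names no gene for them.

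Markers of cells that also make these enzymes did not all go the same way. Of 8 detected megakaryocyte and platelet markers, 7 were at least 2-fold higher in fetal cells and none in adult cells, with summed signals of 17395 and 2956, and Gp6 was without a present call. Platelet factor 4 (Pf4) had 9256 in fetal cells and 401 in adult cells. Macrophage markers were higher in adult cells in 14 of 14 genes, with summed signals of 992 in fetal cells and 29590 in adult cells, 8 of them without a present call in fetal cells. The part of platelet or macrophage RNA in the cyclooxygenase signals was not tested.

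Among the terminal synthases, prostacyclin synthase was higher in adult cells and the cytosolic prostaglandin E synthase in fetal cells. Ptgis, the cytochrome P450 that makes prostacyclin, had a signal of 2677 in fetal cells and 11837 in adult cells with probe set 1448816_at. The adult signal was 4.42-fold higher, a log2 difference of -2.14. A further probe set that the authors' table names Ptgis, 1445044_at, had no present call on either array (13.6 and 0.93) and is not named in the later annotation. Ptges3, known both as a glutathione-dependent prostaglandin E synthase and as p23, a co-chaperone of Hsp90, had 6393 in fetal cells and 2272 in adult cells with probe set 1417998_at. It was 2.81-fold higher in fetal cells (log2 1.49). The other Ptges3 probe set, 1460221_at, had 1993 and 1013, 1.97-fold higher in fetal cells. The later annotation assigns both Ptges3 probe sets to Ptges3 and to its pseudogene Ptges3-ps, so the values cannot be given to Ptges3 alone. Ptges, the inducible microsomal enzyme (mPGES-1) that works with COX-2, had no present call on either array in any of its 3 probe sets. Their signals ran from 3.51 to 37.3 in fetal cells and from 28.2 to 67.9 in adult cells, and no fold is given where neither array detected the gene.

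Prostacyclin synthase is also a product of endothelial cells. The shares of all detected genes, beside the marker counts here, were 16.9% at least 2-fold higher in adult cells and 29.1% in fetal cells. Of 11 detected endothelial markers, 5 were at least 2-fold higher in adult cells, none in fetal cells and 6 neither, with summed signals of 1971 in fetal cells and 15022 in adult cells. The higher ones included the sinusoidal genes Clec4g (91.9 and 6765) and Stab2 (356 and 2485) and the VEGF receptor Kdr (400 and 3857). VE-cadherin (Cdh5) had 128 in fetal cells and 109 in adult cells, with probe sets in both directions, Tie1 had 57.6 and 52.6, and Pecam1 had no present call on either array. The part of endothelial RNA in the Ptgis difference was not tested. Mesothelial markers were detected in 13 of 13 genes, with 6 at least 2-fold higher in adult cells, 1 in fetal cells and 6 neither, and summed signals of 39132 and 91667. Msln and Podxl, on which the cells were sorted, were among the higher ones on the array of their own antibody, with Msln at 48.5 and 11835 and Podxl at 6069 and 1807.

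**Figure D2:**
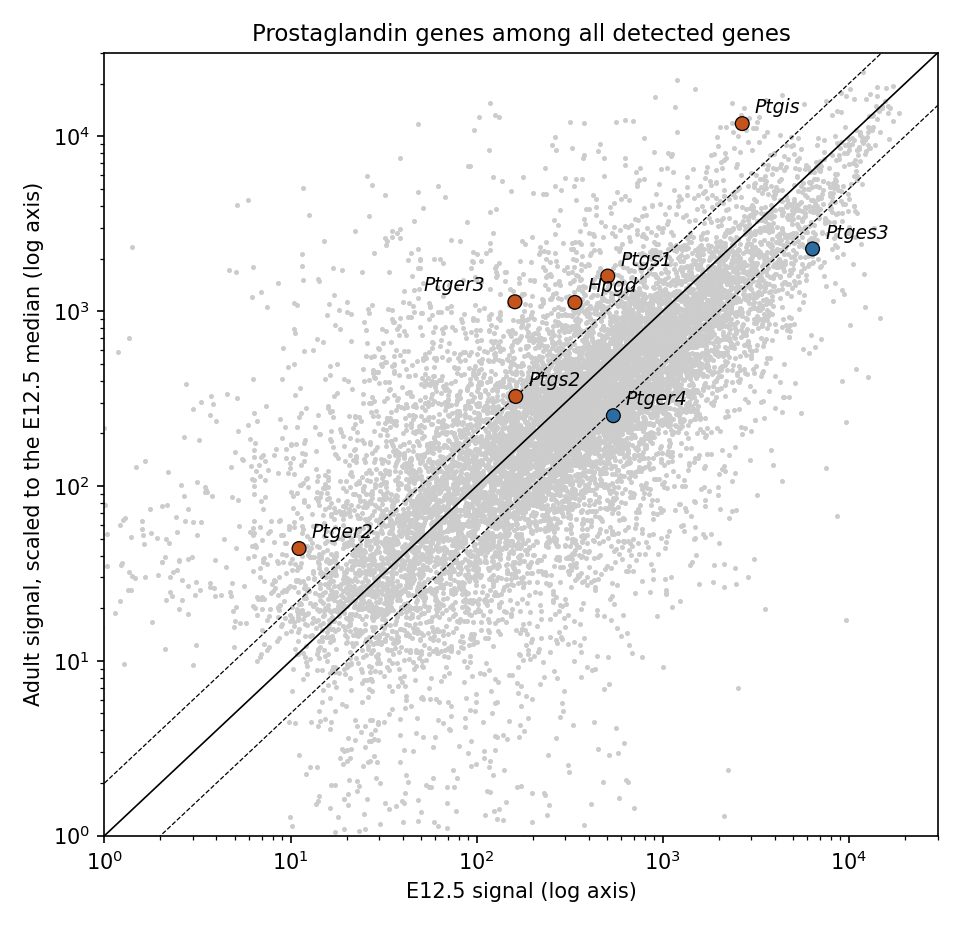
Adult signal against E12.5 signal for all detected genes (grey) and the 8 detected members (orange, higher in adult cells; blue, higher in fetal cells), both on log axes in signal units, with the line of equal signal solid and the 2-fold limits dashed (genes with a signal under 1 on either array lie outside the axes). Ptger3, at 161 and 1132, lies furthest above the limits among the members, Ptgs2 lies on the upper limit, and Ptges3 and Ptger4 lie below the lower limit.

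The receptors of prostaglandin E did not move together. Ptger3 encodes EP3, which mostly couples to Gi proteins and lowers cyclic AMP. It had a signal of 161 in fetal cells and 1132 in adult cells with probe set 1450344_a_at, 7.05-fold higher in adult cells and the largest difference among the 7 members detected on both arrays (log2 -2.82). Its second probe set, 1425251_at, had no present call on either array (7.74 and 1.94), so a single probe set carries the Ptger3 value. Ptger4 encodes EP4, which couples to Gs proteins and raises cyclic AMP. It had 543 in fetal cells and 253 in adult cells with probe set 1424208_at, 2.15-fold higher in fetal cells (log2 1.10). The second Ptger4 probe set, 1421073_a_at, had no present call on either array (10.5 and 8.47). The Ptger4 difference was under 2-fold after quantile normalization (log2 0.80) and with the detected genes centred on 0 (0.73). Ptger3 was on the adult side and Ptger4 on the fetal side in each of the alternatives run.

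Ptger2 encodes EP2, the other Gs-coupled receptor of prostaglandin E. Its probe set 1449310_at had a signal of 11.1 with an absent call in fetal cells and of 43.9 with a present call in adult cells. At these measured signals it was 3.95-fold higher in adult cells. These are low signals, and the log2 value of -1.98 shrank to -1.13 with signals under 20 set to 20 and to -1.14 with the pseudocount. Ptgir, the Gs-coupled prostacyclin receptor, had a signal of 22.0 with an absent call in fetal cells and of 26.0 with a marginal call in adult cells. Prostacyclin synthase thus had present calls on both arrays and its cell surface receptor on neither. Of 9 prostanoid receptor genes in all, the members and the other five, 5 had a present call: Ptger2, Ptger3, Ptger4, the thromboxane receptor Tbxa2r and the prostaglandin D receptor Ptgdr. Tbxa2r had 268 in fetal cells and 322 in adult cells, within 2-fold. Ptgdr had 16.8 with an absent call in fetal cells and 28.7 in adult cells, at least 1.71-fold. Ptger1, Ptgfr and Ptgdr2 had no present call on either array.

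The breakdown enzyme was higher in adult cells together with Ptgs1, Ptgs2 and Ptgis. Hpgd, the dehydrogenase that inactivates prostaglandins by oxidising the hydroxyl group at carbon 15, had a signal of 338 in fetal cells and 1123 in adult cells with probe set 1419905_s_at. The adult signal was 3.33-fold higher (log2 -1.73). The dimmer Hpgd probe set, 1419906_at, had 38.4 with an absent call and 126 with a present call, at least 3.29-fold higher in adult cells, and the probe sets lay 0.017 apart in log2 difference. Over all genes, the differences of probe sets of the same gene scattered with an SD of 0.62 (log2, pooled over 4281 genes), which measures disagreement on the same arrays and not the error between arrays. Of the members, 4 had 2 detected probe sets each, and in all 4 both went the same way. How often this holds over all genes was not computed.

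**Figure D3:**
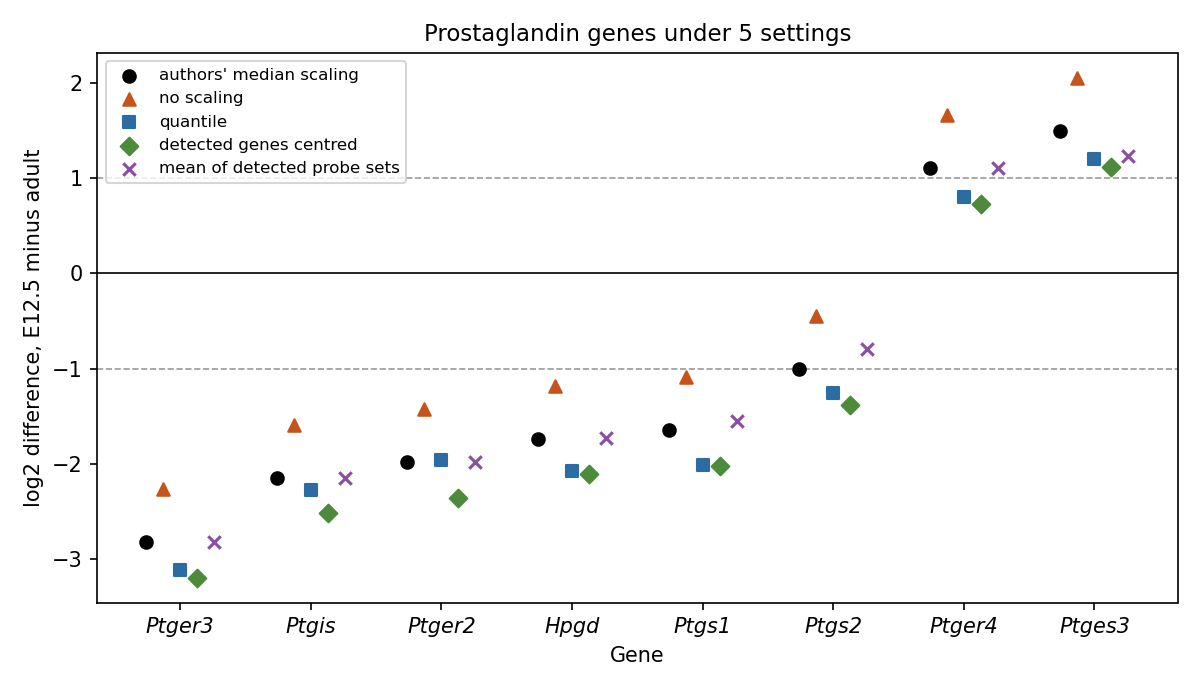
The log2 difference (E12.5 minus adult) of the 8 detected members under the authors' median scaling and 4 alternatives, with dashed lines at 2-fold. Each gene stays on its side of 0, Ptgs2 crosses the 2-fold line without scaling (-0.45) and with probe sets averaged (-0.79), and Ptger4 crosses it after quantile normalization (0.80) and centring (0.73).

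The sequence upstream of the transcription start is shown for both cyclooxygenases and for the EP3 and EP4 genes, which were higher on opposite arrays. The sequences are the 250 bases before the start in the RefSeq table of the GRCm38.p6 assembly, which held 9 of the 10 members (not Ptgis). Ptgs1 lies at chr2:36230176-36230425 on the plus strand, Ptgs2 at chr1:150099781-150100030 on the plus strand, Ptger3 at chr3:157566626-157566875 on the plus strand and Ptger4 at chr15:5244188-5244437 on the minus strand. Capitals mark GC boxes (GGGCGG, the binding motif of Sp factors) and CCAAT boxes (CCAAT) on either strand.
Ptgs1: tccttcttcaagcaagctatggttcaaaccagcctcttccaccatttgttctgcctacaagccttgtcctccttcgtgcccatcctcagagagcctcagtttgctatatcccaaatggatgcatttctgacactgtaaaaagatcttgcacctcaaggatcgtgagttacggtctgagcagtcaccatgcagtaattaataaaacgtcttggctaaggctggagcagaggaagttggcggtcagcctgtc
Ptgs2: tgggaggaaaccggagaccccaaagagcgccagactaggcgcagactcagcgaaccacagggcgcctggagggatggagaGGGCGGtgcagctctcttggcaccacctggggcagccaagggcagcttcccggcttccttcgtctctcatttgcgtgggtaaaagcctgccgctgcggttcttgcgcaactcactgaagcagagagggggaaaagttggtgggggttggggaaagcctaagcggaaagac
Ptger3: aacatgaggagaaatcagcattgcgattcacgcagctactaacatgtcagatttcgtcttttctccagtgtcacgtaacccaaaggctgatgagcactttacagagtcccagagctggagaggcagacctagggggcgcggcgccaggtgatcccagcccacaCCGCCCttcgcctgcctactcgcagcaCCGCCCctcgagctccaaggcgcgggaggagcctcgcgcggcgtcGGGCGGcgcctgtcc
Ptger4: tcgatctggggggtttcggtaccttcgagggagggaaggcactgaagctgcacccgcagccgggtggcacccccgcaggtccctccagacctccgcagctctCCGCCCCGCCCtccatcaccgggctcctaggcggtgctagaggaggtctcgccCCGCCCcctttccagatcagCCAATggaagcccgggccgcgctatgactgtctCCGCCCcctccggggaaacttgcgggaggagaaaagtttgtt
A GC box was found in 7 of the 9 member windows and in 32.7% of the 32851 windows of the same length in the table. Ptger4 had 4, of which 2 overlap by 1 base, Ptger3 and Ptges3 had 3 each, Ptges and Ptgir 2 each, and Ptgs2 and Hpgd 1 each, while Ptgs1 and Ptger2 had 0. The GC content of the windows was 66.8% for Ptger4, 62% for Ptger3, 61.6% for Ptgs2 and 48% for Ptgs1, against a median of 52.4% over the table. A CCAAT box was found for Ptger2 and Ptger4, and in 33.8% of all windows. The TATA box (TATAAA, in 12.4% of all windows), the cyclic AMP response element (TGACGTCA, 1.55%), its partial site (TGACG, which the full element contains, 17.8%), the AP-1 site (TGANTCA, 6.75%), the E-box (CACGTG, 6.02%) and the Egr1 site (GCGTGGGCG, 0.54%) were found in 0 of the 9 member windows. Only the 250 bases before the annotated start were searched, so a site after the start or further upstream would not be seen. The windows of genes higher in adult cells and of genes higher in fetal cells both included windows with GC boxes.

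Genes around the members in the prostanoid pathway, 98 in 8 lists, divided evenly. Of 75 detected genes, 21 lay past 2-fold towards adult cells, 21 towards fetal cells and 33 in neither direction, that is 28% in each direction against 16.9% and 29.1% of all genes. The median log2 difference was -0.23. With the detected genes centred the counts were 28 in adult cells and 10 in fetal cells, so that the even split depends on the scaling.

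The genes that free arachidonic acid went both ways, with 4 of 13 detected genes higher in adult cells, 3 in fetal cells and 6 neither (median 0.00), where the shares over all detected genes were 16.9% and 29.1%. Cytosolic phospholipase A2 (Pla2g4a), the main enzyme that supplies cyclooxygenases in stimulated cells, had 464 in fetal cells and 435 in adult cells. Monoacylglycerol lipase (Mgll), which supplies arachidonic acid from an endocannabinoid, had 95.9 and 1914, 19.96-fold higher in adult cells. The phospholipase and acyltransferase Plaat3 (2.84-fold) and the arachidonate-activating ligase Acsl4 (2.08-fold) were also higher in adult cells, as was the fatty acid amide hydrolase Faah (at least 2.97-fold). The phospholipase A2-activating protein Plaa (3.12-fold), the calcium-independent phospholipase Pla2g6 (2.51-fold, with probe sets in both directions) and the secreted phospholipase Pla2g10 (at least 2.06-fold) were higher in fetal cells. Of the remaining genes, Pla2g1b, Pla2g2e, Pla2g2f and Pla2g5, all secreted phospholipases as well, had no present call.

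The other prostanoid synthases were mostly within 2-fold. Ptgds, the lipocalin-type prostaglandin D synthase, had 82.6 in fetal cells and 434 in adult cells (5.25-fold higher in adult cells). Prxl2b, a prostaglandin F synthase, had 888 and 422 (2.10-fold higher in fetal cells). Ptges2, the membrane-associated prostaglandin E synthase, had 356 and 233, thromboxane synthase (Tbxas1) had 122 and 83.9, and carbonyl reductase Cbr1 had 621 and 590, all within 2-fold. The haematopoietic prostaglandin D synthase Hpgds had no present call. Of the enzymes that make prostaglandin E, Ptges2 had present calls on both arrays, as had the probe sets that Ptges3 shares with its pseudogene, and Ptges on neither.

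Transport and reduction held the largest difference among the pathway genes detected on both arrays, that of Slco2a1, and went both ways. Slco2a1, the transporter that brings prostaglandins into cells where Hpgd oxidises them, had 126 in fetal cells and 3865 in adult cells, 30.6-fold higher in adult cells, and all 4 of its probe sets went that way. Ptgr2, a reductase that acts after Hpgd, had 279 and 845 (3.03-fold higher in adult cells). Ptgr1, a reductase of prostaglandin and leukotriene metabolites, had 1885 and 307 (6.14-fold higher in fetal cells). Abcc4, an exporter of prostaglandin E, had 106 and 152, within 2-fold, and Akr1c18 had no present call. Slco2a1 and Hpgd, which act in sequence in prostaglandin clearance, were thus both higher in adult cells. Slco2a1 is also made by endothelial cells, whose markers are given above, and the part of endothelial RNA in its difference was not tested.

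Genes that induce cyclooxygenases or hold them back were higher in adult cells in 9 of 13 detected genes, in fetal cells in none and in neither in 4, with a median of -1.68. The shares over all detected genes were 16.9% in adult cells and 29.1% in fetal cells. Anxa1, the glucocorticoid-induced annexin known to restrain phospholipase A2, had 463 in fetal cells and 9018 in adult cells (19.5-fold). The transcription factors Cebpd (6.62-fold) and Cebpb (3.21-fold), which bind the Ptgs2 promoter, were higher in adult cells, as were the glucocorticoid receptor Nr3c1 (3.97-fold) and its target Tsc22d3 (at least 4.37-fold). So were the TNF receptor Tnfrsf1a (2.95-fold), Il1b (69.3 and 167, 2.41-fold), Il1a (9.88-fold) and Tlr4 (5.30-fold). Il1a had 6.36 in fetal cells and 62.8 in adult cells, and Tlr4 had 21.5 and 114. Neither had a present call in fetal cells, so their folds hold at the measured signals only. Egr1 (13091 and 17382) and Nfkbia (9036 and 17612) were within 2-fold at high signals, as was the interleukin 1 receptor Il1r1 (230 and 368). The antagonist of that receptor, Il1rn, had 17.5 with a present call in fetal cells and 23.4 with an absent call in adult cells, and Tnf had no present call. Il1b, Il1a and Tlr4 are also genes of macrophages, whose markers were higher in adult cells in 14 of 14 genes. The part of macrophage RNA in these differences was not tested.

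The chaperone partners of p23 were higher in fetal cells together with Ptges3. Of 7 detected genes, 6 lay past 2-fold towards fetal cells and none towards adult cells, and the list median was 1.28, against 29.1% and 16.9% of all detected genes and a median of 0.35. Fkbp4 (2176 and 399, 5.45-fold) and Stip1 (1599 and 333, 4.81-fold), co-chaperones of steroid receptor complexes, had the largest differences. Fkbp5 (2.76-fold), Cdc37 (2.43-fold), Hsp90aa1 (8777 and 3628, 2.42-fold) and Ahsa1 (2.40-fold, with probe sets in both directions) followed. Hspa8 had 15682 and 15928, with probe sets in both directions. With the detected genes centred the count was 3 of 7, against 19.4% of all detected genes.

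Downstream of the receptors, genes of cyclic AMP signalling went both ways, with 7 of 24 detected genes higher in fetal cells, 4 in adult cells and 13 neither (median 0.24). These shares lay near those of all detected genes, 29.1% and 16.9%. Gnas, the Gs protein to which EP2, EP4 and the prostacyclin receptor couple, had 5362 in fetal cells and 4875 in adult cells, with probe sets in both directions, and the Gi proteins Gnai1 (939 and 1184) and Gnai2 (4601 and 4019) were within 2-fold as well, while Gnai3 was 2.50-fold higher in fetal cells. Rapgef3 (Epac1), a cyclic AMP sensor that activates Rap proteins, had 100.3 and 2122, 21.2-fold higher in adult cells, and all 5 of its probe sets went that way. The protein kinase A regulatory subunit Prkar2b had 791 and 100.3, 7.88-fold higher in fetal cells, and Prkar1b was 2.21-fold higher there. Adenylyl cyclases differed by isoform. Adcy2 (4.05-fold), Adcy8 (3.80-fold at the measured signals) and Adcy1 (2.52-fold) were higher in fetal cells. Adcy5 (at least 4.995-fold), Adcy9 (3.20-fold) and Adcy4 (at least 2.42-fold) were higher in adult cells. Adcy8 rests on low signals, 26.3 with a present call in fetal cells and 6.91 with no present call in adult cells. The phosphodiesterase Pde4d was 2.49-fold higher in fetal cells. The count in fetal cells was 3 with the detected genes centred, and 6 with a floor of 20 or a pseudocount of 16.

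**Figure D4:**
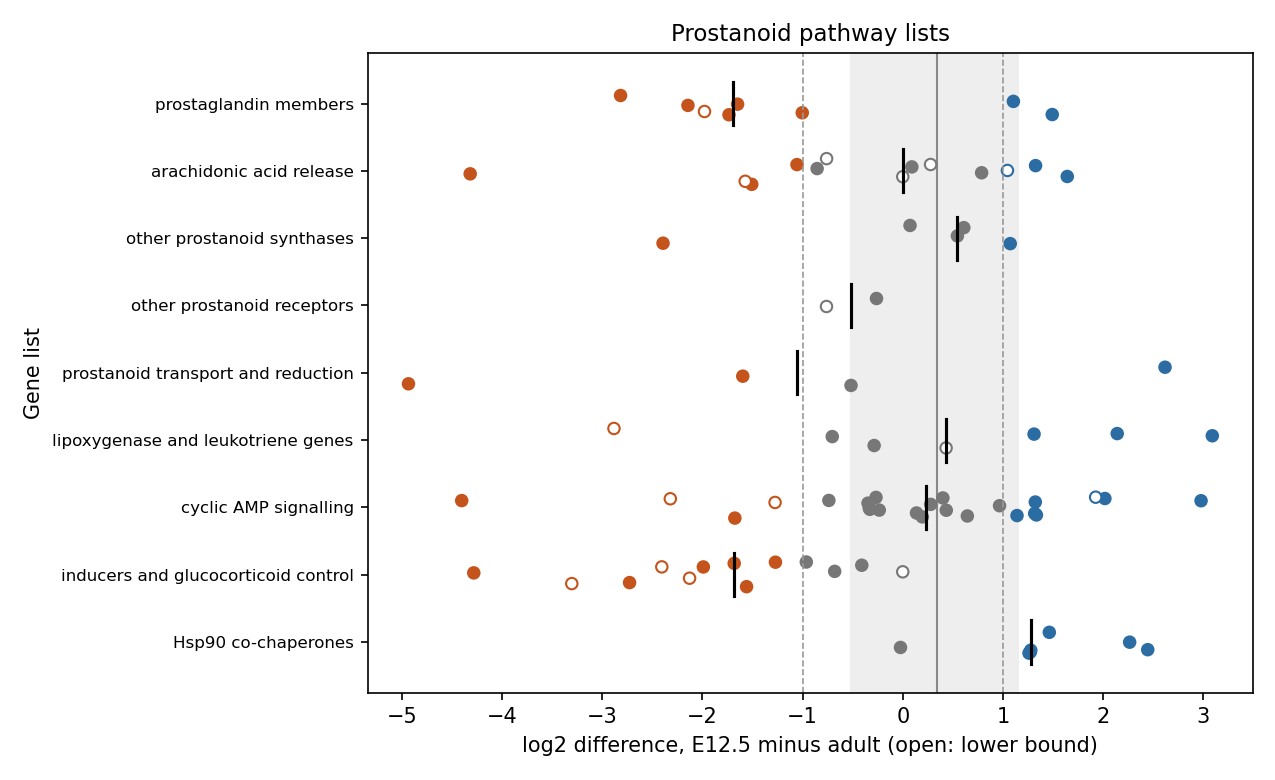
The log2 difference (E12.5 minus adult) of each detected gene of the members and of 8 pathway lists, with filled points for differences, open points for lower bounds, black ticks for list medians, the grey line and band for the median and quartiles of all detected genes, and dashed lines at 2-fold. The members and the inducers and glucocorticoid genes have medians of -1.69 and -1.68, and the Hsp90 co-chaperones 1.28.

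The genes whose signals lay nearest to those of Ptger3, Ptgis and Hpgd, the 3 members with the largest differences among those detected on both arrays, were found by Euclidean distance between log2 signals over the 2 arrays. Around Ptger3 these were Ccpg1 (distance 0.076), Rab17 (0.098) and Map3k5 (0.11). Around Ptgis they were H1f2 (0.15), Itm2b (0.16) and Hspb1 (0.16), and around Hpgd Sik2 (0.085), Nbeal1 (0.091) and Fam117a (0.12). With 2 arrays such a likeness rests on 2 values per gene.

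The arrays differed in the ratio of 3' to 5' signal of control probe sets, which rises where amplified RNA is short. The ratio was 2.07 in fetal cells and 6.81 in adult cells for Gapdh, and 1.93 and 3.47 for beta-actin. Where the member probe sets lie along their transcripts was not examined, and the part of this ratio in their differences was not tested. The share of probe sets called present was 51.9% in fetal cells and 52.2% in adult cells.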

How the data were processed

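Per the submitters' processing notes, Affymetrix Expression Console was used; the summarisation method is not given in the sources used here. Per the file headers, the authors deposited a raw intensity and a detection call (unit other) for 45101 probe sets per array, and a ratio of adult to E12.5. This deposited ratio was tested on the values: it equals the adult intensity divided by 0.680 times the E12.5 intensity, where 0.680 is the ratio of the array medians (29.9 and 44.0). This scaling was kept, with quantile normalization as an alternative. The deposited value table repeats the raw intensity, uncentred and unscaled. With 1 array per group no error between arrays can be given.

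The 64 control probe sets were set aside. Members were named by the symbol in the authors' table: of 19 probe sets, the later platform annotation names 14 alike, gives several genes for 2 and none for 3. Other genes were named from that annotation, updated with RefSeq (34945 probe sets with 1 symbol, 932 with several and 9160 with none). Lower bounds set the bright signal over the dim one, or over the lowest detected signal of that array where the latter was higher (4.57 at E12.5, 5.84 in adult). No list test was run. Named genes were all members, all pathway genes at least 2-fold apart, all genes of lists of up to 7, and the 3 genes nearest to each of the 3 members with the largest differences among those detected on both arrays; further pathway and marker genes were named after their values were seen. The members and lists were chosen with earlier results of these data known. The calculation was tested on simulated data with planted differences. Both simulated arrays had the same detection calls, so the lower bounds were not tested. Python 3.11.15, numpy 2.4.6 and pandas 2.3.3 were used.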

Additional observations from a re-analysis of the deposited data

How the results depend on the processing

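No paired analysis was possible because each group has 1 array, and no replicate could be left out. The 8 detected members kept their direction under every alternative in which they had a value: no scaling, quantile normalization, centring on the detected genes, averaged probe sets, probe sets ending in _x_at or _s_at left out, marginal calls accepted, no detection filter, a floor of 20, a pseudocount of 16, the value table, and gene names from the later annotation alone, an alternative chosen after seeing the data. The ranges of the log2 difference were -3.19 to -2.26 for Ptger3, -2.52 to -1.59 for Ptgis, -2.11 to -1.18 for Hpgd, -2.02 to -1.09 for Ptgs1, -1.38 to -0.45 for Ptgs2, 0.73 to 1.66 for Ptger4 and 1.12 to 2.05 for Ptges3. The value of Ptger2 moved from -1.98 to -1.13 with the floor and to -1.14 with the pseudocount, which by construction shrink differences of low signals. The count of members at least 2-fold higher in fetal cells went from 2 to 1 after quantile normalization, with centring and with the later annotation alone. The count in adult cells was 5 or 6 throughout. Pathway genes higher in fetal cells ranged from 10 with centring to 26 without scaling, against 21 with the authors' scaling. Those in adult cells ranged from 17 to 28. Single lists moved by over 1.5 times in 12 of 160 comparisons of counts. Low signals limit Ptger2, Ptgir, Ptges, Ptgdr, Adcy8, Il1a, Il1rn and Cysltr1. A single detected probe set carries each of Ptgis, Ptger2, Ptger3 and Ptger4.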

Other observations

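Lipoxygenase and leukotriene genes, the other branch of arachidonic acid metabolism, were higher in fetal cells in 3 of 7 detected genes, in adult cells in 1 and in neither in 3 (median 0.43), where the shares over all detected genes were 29.1% and 16.9% and their median 0.35. Alox12, the platelet-type 12-lipoxygenase, had a signal of 421 in fetal cells and 49.5 in adult cells, 8.52-fold higher in fetal cells. Platelet markers were also at least 2-fold higher there in 7 of 8 detected genes (Pf4 at 9256 and 401). The part of platelet RNA in the Alox12 difference was not tested. The cysteinyl leukotriene receptor Cysltr1 had 65.7 in fetal cells and a low 14.9 in adult cells, 4.41-fold higher in fetal cells. The leukotriene A4 hydrolase Lta4h was 2.48-fold higher there (2201 and 887), with probe sets in both directions. Alox15, a lipoxygenase of macrophages and epithelia, had 21.8 with an absent call in fetal cells and 161 in adult cells, at least 7.38-fold higher in adult cells. Alox5 had 76.7 with a present call in fetal cells and 56.8 with no present call in adult cells, at least 1.35-fold, its partner Alox5ap (180 and 293) was within 2-fold, and Ltc4s, Alox8, Alox12b, Cysltr2 and Ltb4r1 had no present call. With no detection filter the counts of this list were 5 in fetal cells and 3 in adult cells.

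Markers of further cell types were also measured, where the shares of all detected genes at least 2-fold higher were 16.9% in adult cells and 29.1% in fetal cells. Hepatoblast and hepatocyte markers were at least 2-fold higher in fetal cells in 8 of 9 detected genes and in adult cells in 1, with summed signals of 29079 and 2705. Erythroid markers were higher in fetal cells in all 8 detected genes (3060 and 153), none with a present call in adult cells. Neutrophil markers were higher in fetal cells in 5 of 5 detected genes (1938 and 189), with Elane and Ltf without a present call. Stellate and fibroblast markers were higher in fetal cells in 7 of 12 genes and in adult cells in 2 (27280 and 37378). The summed signals went the other way from the counts, with Dcn at 1493 in fetal cells and 18789 in adult cells. Mast cell and basophil markers were detected in 3 of 9 genes, with Cpa3, Cma1, Mcpt4, Mcpt8, Tpsb2 and Ms4a2 without a present call, and 1, Hdc, was at least 12.8-fold higher in adult cells. The part of these cells in the signals of the prostaglandin genes was not tested.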
